A study of Auricularia auricula-judae with 2 samples.

Results

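The genes described here are the alcohol, aldehyde and formate dehydrogenases of Auricularia auricula-judae, an edible mushroom that grows on wood, together with the alcohol oxidases and aldehyde reductases that handle the same compounds. They were chosen by the descriptions in the deposited table: a transcript was taken when its description held one of these enzyme names, and names with aryl-alcohol, semialdehyde, mannitol or sorbitol were left out. The rule took 222 of 57717 assembled transcripts, which belong to 141 of 43428 assembled genes. A symbol is that of the closest Swiss-Prot match, often from a distant organism, so each gene is also given by the identifier of its matching transcript with the most reads.

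The irradiated group was fruit bodies grown from mycelium exposed to 200 Gy of gamma rays, and the control group was fruit bodies from unexposed mycelium. Mycelium of both groups spent 14 days at 25 °C on agar, where the exposure took place, then 30 days at 25 °C on sawdust with rice bran. Fruiting took place at 18 °C and 90% humidity. The RNA came from the later fruit bodies and not from the exposed mycelium. The sources used here do not give the strain, the number of fruit bodies behind each library or their age, and the labelled tissue was not checked against markers. Each group had 1 library, so no difference below has a replicate check and none was tested.

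Alcohol dehydrogenases interconvert alcohols with aldehydes or ketones, and many of them bind zinc. Aldehyde dehydrogenases oxidise aldehydes to acids, and aldehyde reductases turn them back into alcohols with NADPH. Alcohol oxidases use oxygen as the acceptor and release hydrogen peroxide, and in wood-decaying fungi they are known as a source of peroxide for lignin-attacking enzymes. Formate dehydrogenase oxidises formate to carbon dioxide and yields NADH. In fungi, formate can arise from formaldehyde and from the breakdown of oxalate, an acid that wood-decaying fungi secrete.

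Levels are the authors' FPKM (fragments per kilobase, scaled by library size, a level per transcript length), summed over the isoforms of a gene. A log2 ratio is that of FPKM + 1 in the irradiated over the control library. Depth is given as scaled reads, the sum of 2 further values per transcript from the authors' own comparison. Their unit is unnamed, and they lie near whole multiples of a constant, much as rescaled read numbers would. A gene was counted as measured from 100 scaled reads. Of the 141 genes, 41 were measured, and they held 98.3% of the scaled reads of the whole group, with between 112 and 8250 scaled reads each. Another 12 genes had 20 to 100 scaled reads and 88 had fewer than 20. Over the whole table the FPKM values summed to 983895 in the irradiated library and 970111 in the control library, and the scaled values to 8404060 in the numerator and 8872430 in the denominator of the authors' ratio.

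The group as a whole lay close to all genes, while a few abundant members lay far below the control. Of the 41 measured genes, 5 reached a 2-fold higher level in the irradiated library (12.2%, against 9.32% of all 8249 measured genes) and 4 were at least 2-fold lower (9.76%, against 8.68%). The median log2 ratio was -0.17, beside 0.10 for all measured genes, and 24 of the 41 (58.5%) lay below 0, against 44.1% of all. With the overall shift of 0.10 removed, the counts were 5 higher and 6 lower, beside 7.25% and 10.3% of all genes. For 9 of the 41 genes, the transcripts that bear the enzyme name held under 50% of the gene's scaled reads, and the other isoforms had other descriptions or none. Among the remaining 32 genes, 25 lay within 2-fold, 3 above that range and 4 below it. All matching transcripts together summed to 2180 FPKM in the irradiated library and 2274 FPKM in the control library. That sum includes genes under 100 scaled reads, which add FPKM on few reads and more of it in the irradiated library. Over the matching isoforms of the measured genes alone, the irradiated sum lay further below the control sum.

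**Figure D1:**
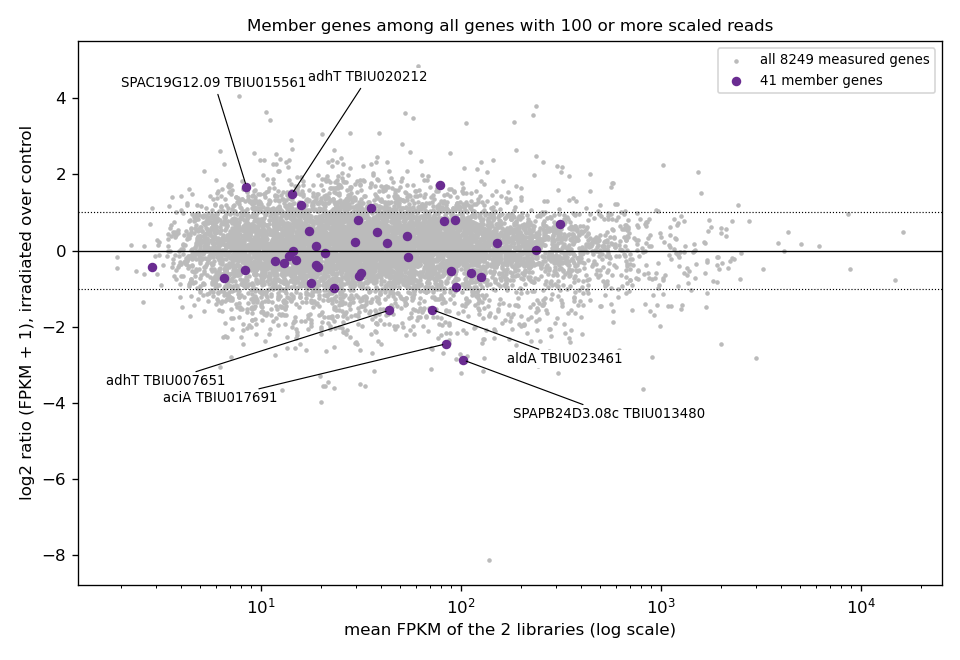
Each point is an assembled gene with 100 or more scaled reads, with its mean FPKM over the 2 libraries on a log axis and its log2 ratio of irradiated over control. Grey points are all 8249 measured genes and purple points are the 41 alcohol, aldehyde and formate enzyme genes, most of which lie between the dotted 2-fold lines. Labelled are the 4 lower genes, led by SPAPB24D3.08c TBIU013480 at -2.88 and aciA TBIU017691 at -2.45, and 2 of the higher ones.

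The gene furthest below the control was of the zinc type. This gene, SPAPB24D3.08c (TBIU013480), had 23.95 FPKM in the irradiated library, against 182 FPKM in the control library. It was thus the third most abundant of the 41 genes in the control library and stood at rank 21 in the irradiated library. Its log2 ratio was -2.88, and the 95% counting interval of its scaled values ran from -3.15 to -2.83. Its other isoform was listed at 0 FPKM in the irradiated library, against 2.28 FPKM in the control library, so nearly all of its reads lay in 1 transcript. In the authors' deposited table that transcript has a log2 fold change of -2.98 and a p-value of 0.156.

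Other genes with the same closest match lay nearer to the control. In all, 11 genes bore the symbol SPAPB24D3.08c, of which 5 were measured. The most abundant of the 5 in the irradiated library and second to TBIU013480 in the control library was TBIU020960. It had 95.7 FPKM in the irradiated library, against 157 FPKM in the control library, a log2 ratio of -0.70. Its 4 matching isoforms spread from -2.68 to 0.54, and its 3 other isoforms are described as alkenal reductases. TBIU011600 had 19.8 FPKM in the irradiated and 18.1 FPKM in the control library. TBIU019550 had 11.4 FPKM in the irradiated and 14.7 FPKM in the control library. Its matching isoform, with 96.7% of the reads, was level at 10.8 and 10.87 FPKM in the same order. The counting intervals of these last 2 genes covered 0. In the remaining gene (TBIU009509), with 25.0 FPKM in the irradiated and 38.4 FPKM in the control library, the matching isoform held 14.7% of the reads and the other isoform is described as an alkenal double bond reductase.

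The other measured zinc-type genes went both ways. SPBC1198.01 (TBIU056134), the most abundant of them, had 240.2 FPKM in the irradiated and 237 FPKM in the control library, which is a log2 ratio of 0.02 (counting interval -0.14 to 0.03). This gene was the second most abundant member in both libraries, and its level hardly differed between them. A gene described as the Bacillus protein YogA (yogA, TBIU012634), whose function is uncharacterised, had 39.4 FPKM in the irradiated and 22.1 FPKM in the control library, a log2 ratio of 0.81. SPBC1773.06c was the closest match of 11 genes, of which 2 were measured. TBIU019203 had 16.4 FPKM in the irradiated and 22.4 FPKM in the control library, and TBIU019790 had 4.7 FPKM and 8.41 FPKM in the same order. The gene SPAC2E1P3.01 (TBIU001024) had 121.8 FPKM in the irradiated and 36.0 FPKM in the control library, a log2 ratio of 1.73, the highest of the 41. Its matching isoforms held 30.4% of the reads and had a log2 ratio of 0.97, while the rest of its reads came from isoforms described as the enoyl reductase LovC, which acts in lovastatin synthesis in Aspergillus.

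Of 2 genes described as formate dehydrogenase, 1 was measured and it lay far below the control. The gene aciA (TBIU017691), a single transcript described as probable formate dehydrogenase, had 25.4 FPKM in the irradiated library, against 144 FPKM in the control library. Its log2 ratio was -2.45, with a counting interval of -2.75 to -2.40, and by level it stood at rank 19 of the 41 genes in the irradiated library, against rank 5 in the control library. In the authors' deposited table its p-value is 0.215. The other gene, FDH1 (TBIU030024), had 3.1 scaled reads and was listed at 0 in the irradiated library and at 5.76 FPKM in the control library. With whole fruit bodies as the sample, fewer cells that make such a transcript and less of it per cell cannot be told apart.

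**Figure D2:**
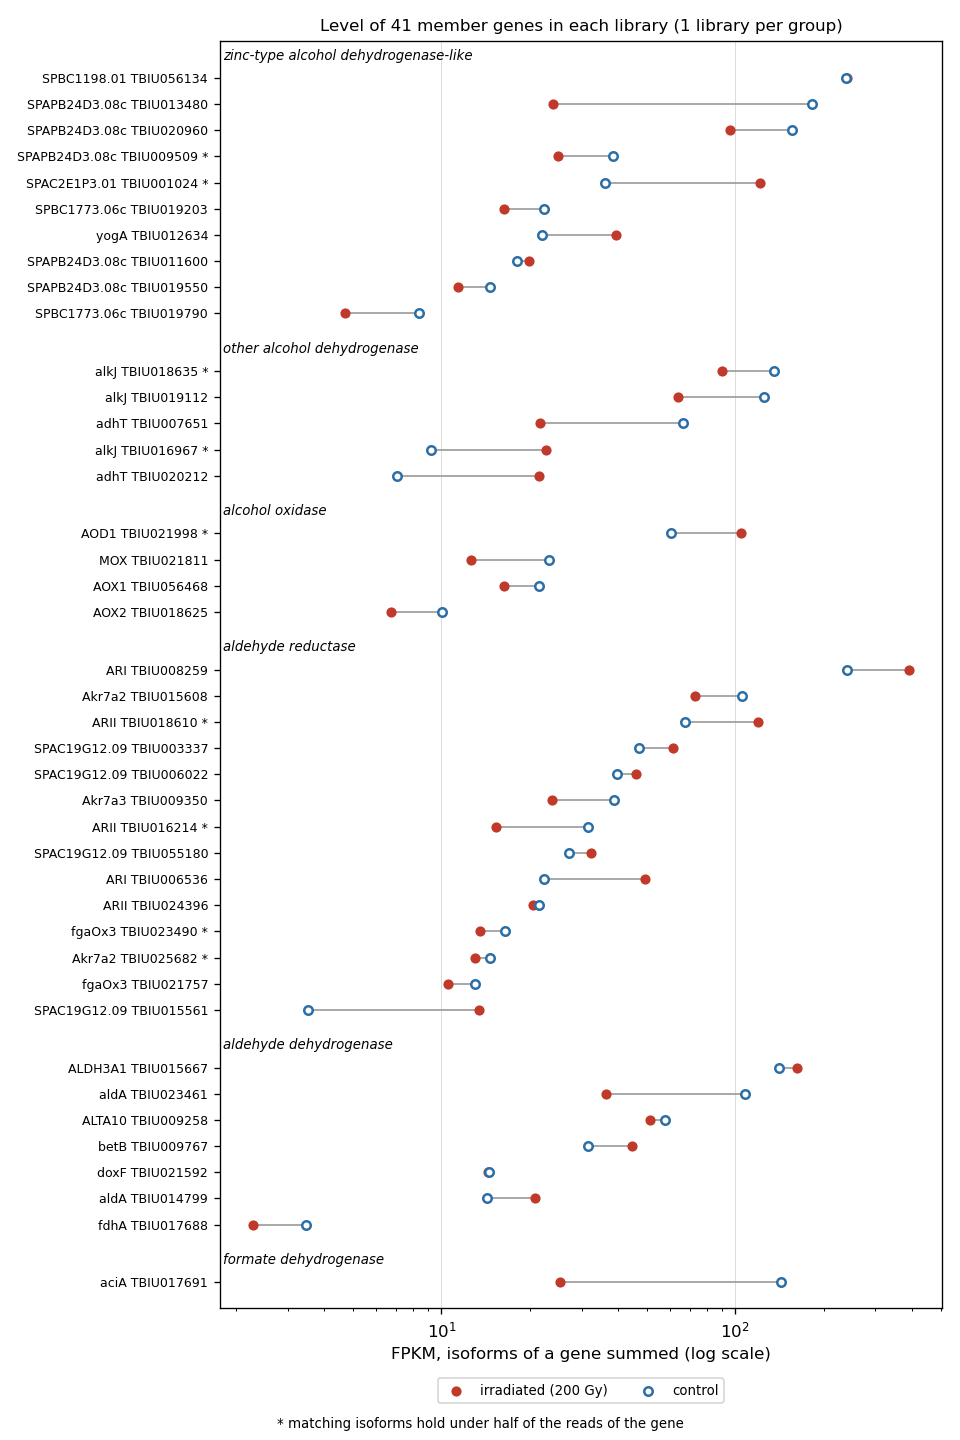
FPKM of the 41 measured genes, isoforms summed, on a log axis, with the irradiated library as filled red points and the control library as open blue points, 1 library each. The widest gaps are those of SPAPB24D3.08c TBIU013480 (23.95 against 182 FPKM) and aciA TBIU017691 (25.4 against 144 FPKM), while SPBC1198.01 TBIU056134 has both points at one place. An asterisk marks the 9 genes whose matching isoforms held under 50% of the reads.

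The remaining alcohol dehydrogenases were few, and they stood on both sides. The symbol adhT, an alcohol dehydrogenase named from a Bacillus relative, belonged to 4 genes, of which 2 were measured, and these lay in opposite directions. TBIU007651 had 21.7 FPKM in the irradiated and 66.3 FPKM in the control library, a log2 ratio of -1.57 (counting interval -1.92 to -1.45). TBIU020212 had 21.5 FPKM in the irradiated and 7.09 FPKM in the control library, a log2 ratio of 1.48 with an interval of 1.24 to 1.87. The 2 genes were thus about equal in the irradiated library and 66.3 against 7.09 FPKM in the control library. Both isoforms of the first gene lay below 0 (-1.64 and -1.10), and all 3 matching isoforms of the second lay above 0 (1.12 to 1.74).

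All 3 genes matched to alkJ, a flavin-dependent alcohol dehydrogenase of alkane-using bacteria, were measured. TBIU019112 had 63.9 FPKM in the irradiated and 125 FPKM in the control library, a log2 ratio of -0.96, just within 2-fold (counting interval -1.17 to -0.97). The alkJ isoforms of the other 2 genes held 1.63% and 4.96% of the reads. TBIU018635 had 90.3 FPKM in the irradiated and 136 FPKM in the control library, nearly all from an isoform described as a pyranose dehydrogenase, an enzyme of the same flavoprotein family. Its alkJ isoform alone had 0.57 FPKM in the irradiated and 12.6 FPKM in the control library, on 64.8 scaled reads. TBIU016967 had 22.6 FPKM in the irradiated and 9.25 FPKM in the control library, a log2 ratio of 1.205 that came from an isoform described as an uncharacterised oxidoreductase, and its alkJ isoform alone was at -0.39 on 8.26 scaled reads.

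The alcohol oxidases were modestly lower where the description held. All 3 measured genes whose reads came from matching isoforms lay below the control, each within 2-fold and each with a counting interval below 0. This is a count of few genes, and 44.1% of all measured genes lay below 0. MOX (TBIU021811), which bears the name of the methanol oxidase of methylotrophic yeasts, had 12.6 FPKM in the irradiated and 23.3 FPKM in the control library, a log2 ratio of -0.84. Its 4 isoforms lay on both sides of 0, from -1.53 to 0.36. AOX1 (TBIU056468) had 16.4 FPKM in the irradiated and 21.5 FPKM in the control library, and AOX2 (TBIU018625) had 6.74 FPKM and 10.04 FPKM in the same order. AOD1 (TBIU021998) had 104 FPKM in the irradiated and 60.3 FPKM in the control library. Its 2 alcohol oxidase isoforms held 8.03% of its scaled reads, yet 52.3 of its FPKM in the irradiated and 34.9 FPKM in the control library, and the third isoform is described as an aminomethyltransferase of mitochondria. The AOD1 isoform was at 1.27, and the other, with the symbol AOX1, was at -0.62 on 10.07 scaled reads. Summed over all matching transcripts, alcohol oxidases had 132 FPKM in the irradiated and 125 FPKM in the control library. That sum also holds the AOD1 isoforms and genes under 100 scaled reads, which add FPKM on few reads. Its direction therefore says little about the 3 genes.

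Aldehyde reductases were the most numerous kind among the measured genes and held the most abundant member. Of 14 genes, 7 lay on each side of 0, with 2 past 2-fold upward (14.3%, against 9.32% of all measured genes) and 0 past it downward by FPKM (against 8.68%). Aldehyde reductase 1 (ARI, TBIU008259), which reduces aldehydes with NADPH in the yeast it is named from, was first of the 41 genes in both libraries, with 391 FPKM in the irradiated and 239.7 FPKM in the control library. Its log2 ratio was 0.70 (counting interval 0.56 to 0.69). Another ARI gene (TBIU006536) had 49.3 FPKM in the irradiated and 22.3 FPKM in the control library, a log2 ratio of 1.11 with an interval of 0.87 to 1.27, which reaches below 2-fold. Both measured ARI genes, of 6 with that symbol, were thus above the control. A sparser ARI gene (TBIU010482), on 70.6 scaled reads, lay below it, with 18.0 FPKM in the irradiated and 29.5 FPKM in the control library.

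The symbol SPAC19G12.09, an indole-3-acetaldehyde reductase in fission yeast, belonged to 5 genes, of which 4 were measured, and all 4 lay above 0. Among all measured genes, 44.1% lay below 0 and the median log2 ratio was 0.10. TBIU003337 had 61.2 FPKM in the irradiated and 47.0 FPKM in the control library, TBIU006022 had 45.8 and 39.6 FPKM in the same order, and TBIU055180 had 32.2 and 27.2 FPKM. The least abundant, TBIU015561, had 13.5 FPKM in the irradiated and 3.52 FPKM in the control library, a log2 ratio of 1.68. It rests on 129.9 scaled reads, and its counting interval of 1.25 to 2.52 was the widest among the 9 genes at least 2-fold apart. The intervals of TBIU006022 and TBIU055180 covered 0.

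Measured genes matched to the mammalian aflatoxin B1 aldehyde reductases lay below the control when all isoforms were summed. Akr7a2 (TBIU015608) had 72.7 FPKM in the irradiated and 105.5 FPKM in the control library, a log2 ratio of -0.53. Its most abundant isoform was at -0.11 and its 5 others lay below that, down to -2.31. Akr7a3 (TBIU009350) had 23.8 FPKM in the irradiated and 38.6 FPKM in the control library (-0.67). A second Akr7a2 gene (TBIU025682), with 13.1 FPKM in the irradiated and 14.6 FPKM in the control library, had 46.2% of its reads in matching isoforms. Those isoforms went both ways, at -0.83 and 1.27, and had a log2 ratio of -0.10 together.

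Aldehyde reductase 2 (ARII), the match of 5 genes, had 3 measured genes that differed in direction. TBIU018610 had 119 FPKM in the irradiated and 67.4 FPKM in the control library, of which the ARII isoform held 17.1 FPKM and 6.97 FPKM. TBIU016214 had 15.3 FPKM in the irradiated and 31.5 FPKM in the control library, a log2 ratio of -0.996 and so just within 2-fold, and its ARII isoform was at -0.75 with 42.3% of the reads. TBIU024396 had 20.6 FPKM in the irradiated and 21.4 FPKM in the control library, and its interval covered 0. That sum mixed an ARII isoform at -0.59, with 54.5% of the reads, and an isoform described as an uncharacterised oxidoreductase at 1.10. The chanoclavine-I aldehyde reductase fgaOx3, an ergot alkaloid enzyme of Aspergillus, matched 2 measured genes. TBIU021757 had 10.6 FPKM in the irradiated and 13.0 FPKM in the control library with an interval that covered 0. TBIU023490 had 13.5 FPKM in the irradiated and 16.4 FPKM in the control library, with 18.4% of its reads in matching isoforms. Those isoforms alone had 6.27 FPKM in the irradiated and 4.81 FPKM in the control library, the opposite direction to the gene.

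Among the aldehyde dehydrogenases, 1 of 7 measured genes was at least 2-fold lower (14.3%, against 8.68% of all measured genes). At least 2-fold higher were 0 of the 7, against 9.32% of all. The gene aldA (TBIU023461) had 36.2 FPKM in the irradiated and 108 FPKM in the control library, a log2 ratio of -1.55 (counting interval -1.74 to -1.54). Its isoform with the most reads was at 5.96 FPKM in the irradiated and 51.6 FPKM in the control library (log2 ratio -2.92), while another (TBIU023459) was at 10.4 and 7.86 FPKM in the same order (0.37), so its isoforms did not share 1 direction. A second aldA gene (TBIU014799) had 20.8 FPKM in the irradiated and 14.3 FPKM in the control library (0.51).

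The other aldehyde dehydrogenases lay nearer to the control. ALDH3A1 (TBIU015667), named from the dimeric mammalian enzyme, was the third most abundant member in the irradiated library, with 163 FPKM there and 141 FPKM in the control library. ALTA10 (TBIU009258), named from an Alternaria allergen, had 51.1 FPKM in the irradiated and 57.7 FPKM in the control library. The betaine aldehyde dehydrogenase betB (TBIU009767), which makes the osmoprotectant glycine betaine in bacteria, had 44.6 FPKM in the irradiated and 31.5 FPKM in the control library (0.49). The salicylaldehyde dehydrogenase doxF (TBIU021592), an aromatic breakdown enzyme of bacteria, had 14.4 FPKM in the irradiated and 14.6 FPKM in the control library, and its 4 isoforms outside the rule are described as vanillin dehydrogenase, another aromatic aldehyde enzyme. The formaldehyde dehydrogenase fdhA (TBIU017688), which needs no glutathione, had 2.28 FPKM in the irradiated and 3.45 FPKM in the control library.

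**Figure D3:**
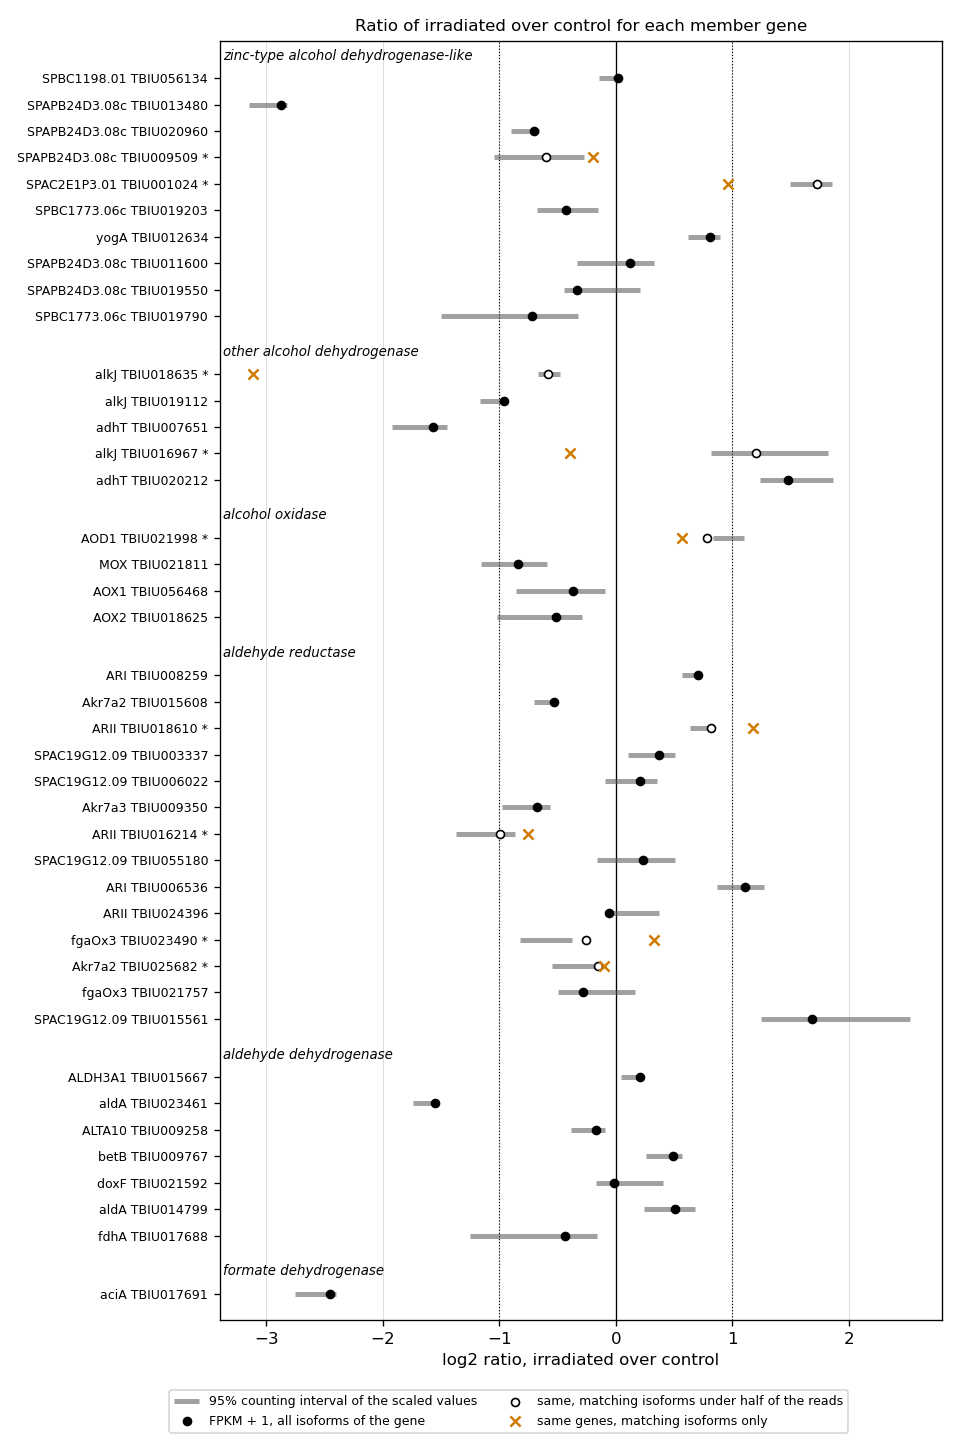
Points are log2 ratios of irradiated over control from FPKM + 1, and grey bars are 95% counting intervals of the scaled values, so a point can lie outside its bar. Open points mark the 9 genes whose matching isoforms held under 50% of the reads, and crosses give the ratio of those isoforms alone, which for SPAC2E1P3.01 TBIU001024 is 0.97 beside 1.73 for the gene and for alkJ TBIU016967 is -0.39 beside 1.205. Dotted lines mark 2-fold.

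Isoforms of 1 gene could differ, as they did in the table at large. Over isoforms of any description with 20 or more scaled reads, 16 of 26 measured members with at least 2 such isoforms had them on both sides of 0 (61.5%, against 55% of 3849 such genes). In 18 of the 26, isoforms were at least 2-fold apart from each other (69.2%, against 53.3%), and the members had a median of 3 such isoforms a gene, against 2 over all. Of 20 measured genes with at least 2 matching isoforms of 20 or more scaled reads, 15 had isoforms on both sides of 0 and 13 had isoforms at least 2-fold apart from each other. No share over all genes was taken on that narrower basis, so these 2 counts have nothing to be set against. Among these 20, the widest spread was that of doxF (TBIU021592), from -2.85 to 1.64, although the gene as a whole stood at -0.02. One of its isoforms (TBIU021591) was listed at 0 in the irradiated and at 6.21 FPKM in the control library, and another (TBIU021596) at 2.12 FPKM in the irradiated library and at 0 in the control library. The isoforms of yogA (TBIU012634) ran from -0.36 to 2.55 and those of betB (TBIU009767) from -0.07 to 2.19. The sources used here do not say how the authors shared reads between isoforms. In the authors' deposited table, 3 of the 222 matching transcripts have a p-value of 0.05 or less (1.35%, against 2.33% of all transcripts), namely these 2 doxF isoforms and 1 of betB (TBIU009766), each listed at 0 in 1 library. Every q-value in that table is 1.

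Summed by kind, aldehyde reductases were the largest pool in the irradiated library and zinc-type alcohol dehydrogenase-like transcripts the largest in the control library. Matching aldehyde reductase transcripts summed to 810.3 FPKM in the irradiated and 645 FPKM in the control library. Without ARI TBIU008259 those sums were 419.5 FPKM in the irradiated and 405 FPKM in the control library, so most of the gap lay in that gene. The zinc-type transcripts summed to 581 FPKM in the irradiated and 684 FPKM in the control library. Without SPAPB24D3.08c TBIU013480 those sums were 557 FPKM in the irradiated and 502 FPKM in the control library. Both sums include zinc-type genes under 100 scaled reads, which add FPKM on few reads. The change of direction did not hold for the measured zinc-type genes alone. Without TBIU013480, their matching isoforms still summed to less in the irradiated than in the control library. Aldehyde dehydrogenases summed to 414 FPKM in the irradiated and 404 FPKM in the control library. The remaining alcohol dehydrogenases had 192 and 252 FPKM in the same order, and formate dehydrogenase had 25.4 and 149 FPKM. These sums include such sparse genes as well. Over the matching isoforms of the measured aldehyde dehydrogenases alone, the irradiated sum was the lower one. For the measured genes among the remaining alcohol dehydrogenases, the gap was wider than in the full sum.

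**Figure D4:**
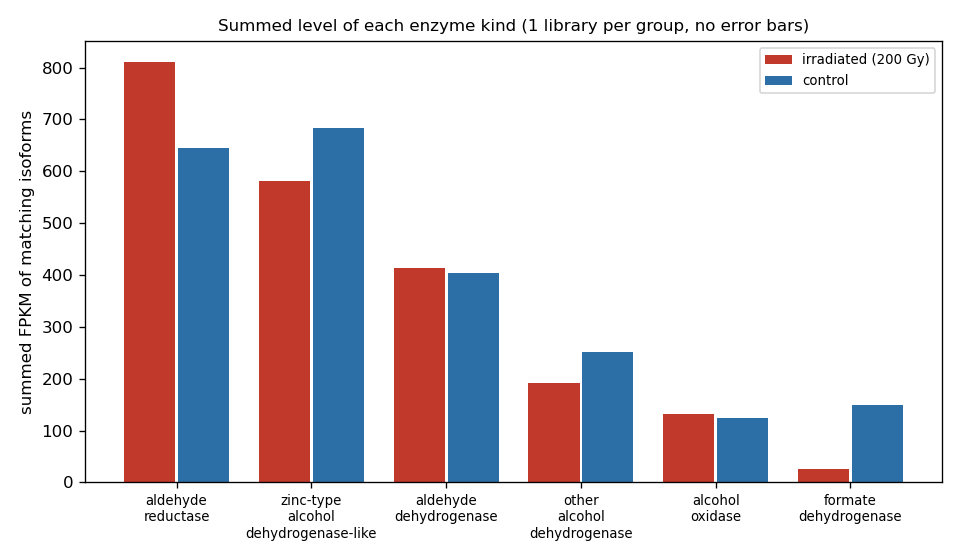
Bars are FPKM summed over the matching transcripts of the 6 enzyme kinds with a measured gene, red for the irradiated and blue for the control library, 1 library each and so without error bars. Of these 6, formate dehydrogenase has the widest gap in proportion (25.4 against 149 FPKM). Aldehyde dehydrogenases have 414 against 404 FPKM. The sums include genes under 100 scaled reads, which add FPKM on few reads, so a small gap need not be that of the measured genes.

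The 100 genes under 100 scaled reads gave little on levels. Of these, 38 were above 0 FPKM in both libraries, 16 stood at 0 FPKM in the irradiated library and 46 did so in the control library. Among all 35179 genes of so few reads the shares were 28.5% at 0 in the irradiated and 35.0% in the control library. Genes listed at 0 in the control library had at most 11.6 scaled reads, with a median of 2.9, and those at 0 in the irradiated library at most 7.24. The lowest common values of the 2 scaled columns were 0.968 and 1.03, so most of these genes rest on values near a few such steps. The 3 with the most reads were SPBC1773.06c (TBIU057031) with 10.1 FPKM in the irradiated and 6.56 FPKM in the control library, adhT (TBIU047741) with 3.45 and 5.71 FPKM in the same order, and fgaOx3 (TBIU011889) with 4.76 and 6.08 FPKM. The sparse genes include all 5 genes described as cinnamyl alcohol dehydrogenases, enzymes of lignin building in plants, with at most 8.01 scaled reads. They also include both class-3 alcohol dehydrogenases, the enzymes of glutathione-dependent formaldehyde oxidation, which were listed at 0 in the control library. A further 6 are not dehydrogenases: they match CCR4, a subunit of an mRNA deadenylase complex in yeast, whose description names the alcohol dehydrogenase gene it affects, and none had over 6.2 scaled reads.

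The enzymes next to this group in metabolism were taken from a list of descriptions that spans pyruvate decarboxylase, pyruvate dehydrogenase, acetyl-CoA synthetase, the glyoxylate cycle, lactate and oxalate enzymes and S-formylglutathione hydrolase. Of 102 such genes, 17 were measured and had a median log2 ratio of -0.23. PDC1 and a PTC5 gene exceeded 2-fold upward and an isocitrate lyase gene downward, and the other 14 stayed within it. These are shares of 11.8% and 5.88%, against 9.32% and 8.68% of all measured genes, whose median was 0.10. Isocitrate lyase (ACU-7, TBIU014101), the first enzyme of the glyoxylate cycle, had 406 FPKM in the irradiated and 818 FPKM in the control library, a log2 ratio of -1.01 with an interval of -1.13 to -1.04. Malate synthase (acuE, TBIU048827), the second, had 65.4 FPKM in the irradiated and 116.8 FPKM in the control library (-0.83), and acetyl-CoA synthetase (ACS-1, TBIU016048), which activates acetate, had 114 and 222 FPKM in the same order (-0.96). A less abundant isocitrate lyase gene (TBIU001961) was at -0.75. These 4 genes of acetate use, which include both measured isocitrate lyase genes, thus lay below the control, 3 of them within 2-fold. Of the 17 measured neighbours 58.8% lay below 0, against 44.1% of all measured genes. The list was written with results of these data known, and whether the 4 genes differ as a set was not tested.

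Pyruvate decarboxylase, which makes acetaldehyde from pyruvate and so feeds the alcohol dehydrogenases, lay above the control. The abundant gene (SPAC3G9.11c, TBIU026227) had 928 FPKM in the irradiated and 607 FPKM in the control library (log2 ratio 0.61), and the gene PDC1 (TBIU060523) had 79.3 and 21.7 FPKM in the same order (1.82). The subunit PDA1 (TBIU007509) of pyruvate dehydrogenase, which takes pyruvate to acetyl-CoA instead, was at -0.23. The other gene at least 2-fold higher was PTC5 (TBIU013385), a phosphatase of pyruvate dehydrogenase, with 11.1 FPKM in the irradiated and 2.81 FPKM in the control library (1.66).

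The remaining neighbours were within 2-fold. Genes of D-lactate dehydrogenase differed in direction, with ldhA (TBIU006929) at 78.3 FPKM in the irradiated and 154 FPKM in the control library and DLD (TBIU019164) at 74.8 and 39.8 FPKM in the same order. Oxalate decarboxylase (oxdC, TBIU022413), which turns oxalate into formate, had 9.38 FPKM in the irradiated and 17.4 FPKM in the control library (-0.83). S-formylglutathione hydrolase (Esd, TBIU012759), which releases formate in formaldehyde breakdown, had 26.7 FPKM in the irradiated and 24.3 FPKM in the control library with an interval that covered 0. The text list also caught leu3 (TBIU013897, -0.40) of leucine synthesis and mclA (TBIU016368, -0.20) of propionate breakdown, which are not glyoxylate cycle enzymes. Of the genes with the excluded names, 13 were measured. All of these had aryl-alcohol or semialdehyde names, so no mannitol or sorbitol gene was measured, and aasdhppt (TBIU016568) is described as a phosphopantetheinyl transferase. Among the 13, 2 exceeded 2-fold upward (15.4%, against 9.32% of all measured genes) and 0 downward by FPKM (against 8.68%). Their median log2 ratio was 0.12, beside 0.10 for all.

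**Figure D5:**
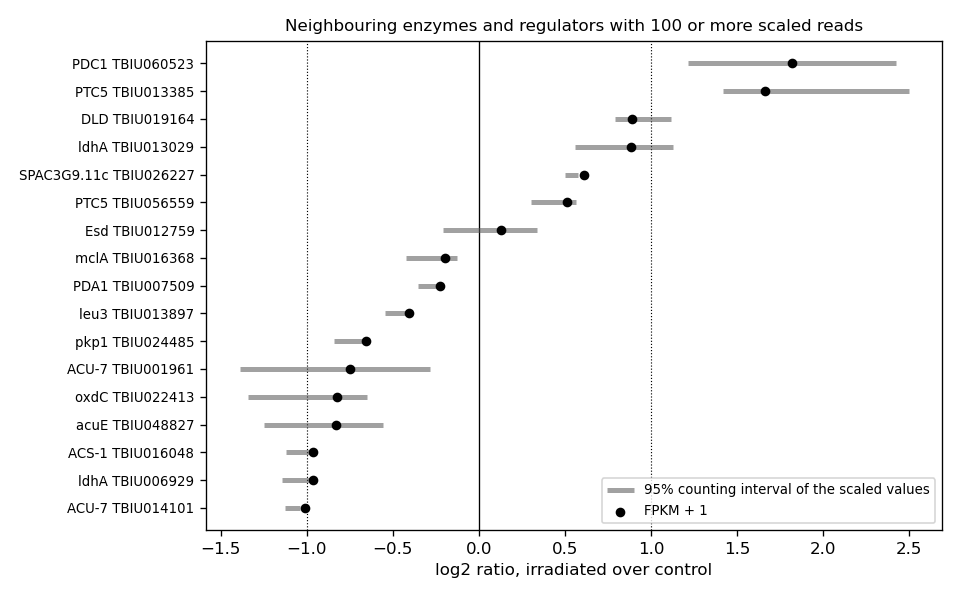
Log2 ratios of irradiated over control (points, FPKM + 1) and 95% counting intervals of the scaled values (bars) for the 17 measured genes of the neighbouring list. Isocitrate lyase ACU-7 TBIU014101 is lowest at -1.01, and PDC1 TBIU060523 is highest at 1.82.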

How the data were processed

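RNA-seq of fruit bodies gave 1 irradiated and 1 control library, matched to the FPKM columns by their descriptions. Per the file headers the authors deposited FPKM, here with 2 decimals. No source used here names the assembler, aligner, genome build or strand setting. The log2 fold change, p-values and q-values in the deposited table are the authors' own comparison. That comparison also holds 2 deposited values per transcript with no unit and no library name, whose log2 ratio is its fold change. No header ties them to these 2 libraries. That link, and their direction, rest on how they follow the FPKM values, and so do the minimum of reads and the intervals. Of the values under 20, 81.9% in 1 column lay within 0.1 of a whole multiple of 0.968. In the other column, 79.8% lay within 0.1 of one of 1.03. They were therefore not taken as raw counts, but the intervals treat their rounded values as counts.

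FPKM and scaled values were summed over all isoforms of a gene (assembly name without its isoform suffix). Ratios used a pseudocount of 1, a minimum of 100 scaled reads and a 2-fold limit. Clopper-Pearson 95% intervals on rounded scaled values cover counting error only. Matching descriptions were not corrected. Every member with 100 or more scaled reads is named, with the 3 sparser ones that have the most reads and a few others. The members, the lists and the tests were chosen with earlier results of these data known. The counting step was checked on simulated data. Versions were Python 3.11.15, numpy 2.4.6, pandas 2.3.3, scipy 1.17.1 and matplotlib 3.10.9.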

Additional observations from a re-analysis of the deposited data

How the results depend on the processing

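Alternatives changed 1 choice at a time, and 2 were added after seeing the data: matching isoforms alone, and the 32 genes with at least 50% of reads in them. Counts of member genes at least 2-fold higher and lower were 5 and 4. Higher counts came to 3 among those 32 genes, 3 with a pseudocount of 5 and 54 with no minimum of reads. Lower counts came to 7 when each gene was read from its deepest isoform and 22 with no minimum, where the median of the members was 0.37 over 141 genes, most with few reads. With no minimum 32.7% of all genes were higher and 27.3% lower. The authors' scaled values, like the removal of the overall shift, gave 5 higher and 6 lower, since ARII TBIU016214 and alkJ TBIU019112 passed 2-fold. Other counts were within 1.5 times and other medians of the members ran from -0.29 to -0.07. For the neighbouring list, higher counts were 4 when each gene was read from its deepest isoform and 40 with no minimum, beside 2, and lower counts were 3 with the authors' scaled values, 3 with the shift removed (ACS-1 TBIU016048 and ldhA TBIU006929 joined) and 31 with no minimum, beside 1. The median of that list was -0.23, ran from -0.40 to -0.21 in the other alternatives and turned to 0.18 with no minimum. ARI TBIU006536 and alkJ TBIU016967 came within 2-fold with a pseudocount of 5, at 0.99 and 0.96, and SPAC2E1P3.01 TBIU001024 with matching isoforms alone, at 0.97. No paired analysis was possible because each group has 1 library, which also left no library to leave out.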
